A study of Mus musculus with 6 samples.

Results

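The subject is the GDNF family: the ligands Gdnf, Artn, Nrtn and Pspn, the co-receptors Gfra1, Gfra2, Gfra3 and Gfra4, and the signalling receptors Ret and Ncam1. The genes were chosen by name, and all 10 were present among the 45703 genes of the count table. They were measured by RNA sequencing in 6 replicate cultures of cells from mouse dorsal root ganglia (DRG), which hold the cell bodies of sensory neurons together with their glia. The mice were adult (4 to 6 weeks), of strain C57BL/6 and wild type. Per the labels, the tissue was dissociated with Liberase enzymes, and the cells grew for 7 days on poly-L-lysine in DMEM/F12 that held 10% fetal calf serum plus the growth factors EGF and FGF (10 ng/ml); RNA of 2 dishes made up a sample. No GDNF family ligand is listed among the additions to the medium. All samples belonged to this single group, so the comparisons are between the replicate cultures and, within a library, between genes.

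The GDNF family ligands are secreted, cysteine-rich growth factors that keep sensory, motor and enteric neurons alive and direct their axons. Each binds by preference its own co-receptor, a protein held in the outer membrane by a lipid anchor: GDNF binds the product of Gfra1, neurturin (Nrtn) that of Gfra2, artemin (Artn) that of Gfra3 and persephin (Pspn) that of Gfra4. The complex then activates RET, a receptor tyrosine kinase, while the neural cell adhesion molecule NCAM, encoded by Ncam1, can transmit GDNF signals without RET. In adult DRG, RET marks the nociceptors that bind the plant lectin IB4 and some mechanoreceptors, Gfra2 is known from the nonpeptidergic nociceptors and Gfra3 from peptidergic ones. Schwann cells cut off from axons are known to raise Gdnf and Artn.

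The 6 libraries held 20070639 to 22968642 counts, and trimmed mean of M-values (TMM) factors, which correct for differences in composition, lay between 0.974 and 1.03. Markers of neurons, glia and fibroblasts were present: 12 of 12 neuron genes, 7 of 7 glial lineage genes and 7 of 7 fibroblast genes were at or above 1 CPM (a gene's count relative to the library total, as counts per 1000000) in all libraries, whereas 5 of 6 lymphocyte genes were at 3 counts or fewer in each. The fibroblast list varied the most of these, with a summed level of 3340.5 CPM in replicate 1 and 14103 CPM in replicate 5. Nothing in the labels says that the cultures came from separate animals, so the p-values measure the spread between these samples, which may be technical in part. The labels give no batch.

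Gdnf and Artn were the ligand genes with measurable transcripts, and Nrtn and Pspn were hardly counted at all. Gdnf (chromosome 15, 7810048 to 7837580, plus strand, GRCm38.p6) had a lowest level of 92.8 CPM, a median of 109 CPM and a highest of 135 CPM, the last in replicate 1. It was the steadiest of the abundant members, with a mean of 111 ± 15.0 CPM (SD, n = 6). Artn (chromosome 4, 117925908 to 117930795, minus strand) stood at 24.1, 22.3, 41.8, 43.3, 50.6 and 29.7 CPM in replicates 1 to 6, a mean of 35.3 ± 11.5 CPM (SD, n = 6). Its level was thus highest in replicate 5 and lowest in replicate 2, and the ranges of Gdnf and Artn did not overlap.

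Nrtn (chromosome 17, 56751323 to 56757548, minus strand) received 2, 1 and 1 counts in replicates 1, 2 and 3 and 0 in the others. Its 4 counts over all libraries have an exact 95% Poisson interval of 1.09 to 10.2 counts, or 0.00848 to 0.0797 CPM, which covers counting error only. Pspn (chromosome 17, 56999313 to 57000105, minus strand) received 1 count, in replicate 3, and the upper bound of its interval is 0.0434 CPM. Neither gene was detectable at this depth, where 3 counts correspond to 0.131 to 0.149 CPM. The last 28 bases of Pspn also belong to Alkbh7 on the other strand, which had 52 to 87 counts.

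The promoter windows of the ligand genes are shown to set the counted ligands beside those that were hardly counted. Each window runs from 250 bases before to 50 bases after a RefSeq transcript start on GRCm38.p6, 5′ to 3′ on the strand of the gene, and capitals mark matches, on either strand, to any of 4 motifs that are named with their letters after the sequences. RefSeq windows were matched for 6 of the 10 members. Gdnf has 2 windows, and the one at the annotated start of the gene is printed; the other (7813477 to 7813776) matched 0 of the 4 motifs. The Artn window belongs to a transcript that starts inside the annotated gene.
Gdnf, chr15:7809798-7810097, plus strand: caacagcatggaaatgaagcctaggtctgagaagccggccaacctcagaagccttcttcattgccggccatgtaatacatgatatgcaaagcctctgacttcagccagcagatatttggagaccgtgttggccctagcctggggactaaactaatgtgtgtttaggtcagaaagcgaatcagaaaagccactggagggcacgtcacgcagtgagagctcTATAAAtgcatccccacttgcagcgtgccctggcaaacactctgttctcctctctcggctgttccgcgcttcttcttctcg
Artn, chr4:117929714-117930013, minus strand: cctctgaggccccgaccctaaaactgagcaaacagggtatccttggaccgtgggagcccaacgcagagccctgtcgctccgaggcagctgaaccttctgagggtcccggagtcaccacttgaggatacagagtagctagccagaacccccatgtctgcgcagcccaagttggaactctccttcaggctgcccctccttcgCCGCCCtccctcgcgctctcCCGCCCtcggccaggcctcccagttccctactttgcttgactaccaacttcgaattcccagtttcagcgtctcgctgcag
Nrtn, chr17:56757499-56757798, minus strand: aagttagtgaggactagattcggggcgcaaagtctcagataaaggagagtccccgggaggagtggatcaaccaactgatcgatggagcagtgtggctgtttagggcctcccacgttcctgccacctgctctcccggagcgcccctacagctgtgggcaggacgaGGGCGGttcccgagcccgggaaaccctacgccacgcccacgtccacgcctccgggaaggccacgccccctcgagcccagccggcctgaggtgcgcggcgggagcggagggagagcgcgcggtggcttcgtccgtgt
Pspn, chr17:57000056-57000355, minus strand: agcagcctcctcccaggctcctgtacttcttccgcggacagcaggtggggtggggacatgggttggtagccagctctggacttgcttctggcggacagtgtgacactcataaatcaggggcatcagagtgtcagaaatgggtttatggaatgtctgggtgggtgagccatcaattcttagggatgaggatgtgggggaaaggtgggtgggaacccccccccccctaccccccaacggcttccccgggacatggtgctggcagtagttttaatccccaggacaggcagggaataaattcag
The first motif is the core promoter element with the letters TATAAA. The printed Gdnf window held it at position -31 from the start, and the other 3 windows printed did not hold these letters. Of all 32851 windows of this length, 13.6% held it. The GC box, searched as GGGCGG, was found 2 times in the Artn window, at -50 and -30, and once in the Nrtn window, at -86, and 35.7% of all windows held it. The AP-1 site, searched as TGANTCA, is in 7.81% of all windows and matched none of these 4. The cyclic AMP response element, searched as TGACGTCA, is in 1.79% of all windows and matched none of them either. G and C made up 51.7% of the Gdnf window, 61.3% of that of Artn, 66.7% of that of Nrtn and 57.3% of that of Pspn, against a median of 52.7% over all windows. A match of letters describes the sequence and is not a measured binding site.

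Among the co-receptors, Gfra1, Gfra3 and Gfra2 were abundant and Gfra4 was low, at 1.07 to 1.47 CPM. Gfra1 (chromosome 19, 58235581 to 58455946, minus strand) had 181 CPM at the lowest, a median of 256 CPM and 411 CPM at the highest, in replicate 1, with a mean of 271 ± 76.6 CPM (SD, n = 6). Gfra3 (chromosome 18, 34689898 to 34720387, minus strand) stood at 77.2, 68.6, 148, 119, 80.4 and 142 CPM in replicates 1 to 6. Replicates 3 and 6 were high and replicates 1, 2 and 5 low, and the mean was 106 ± 35.03 CPM (SD, n = 6).

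Gfra2 (chromosome 14, 70890107 to 70979840, plus strand) stood at 121, 121, 90.7, 83.7, 61.4 and 113 CPM in replicates 1 to 6, a mean of 98.6 ± 24.1 CPM (SD, n = 6). Its lowest value was that of replicate 5. Gfra4 (chromosome 2, 131039632 to 131043088, minus strand) received 23.5 to 31 counts per library, which is 1.29 ± 0.176 CPM (SD, n = 6). Its counts were not whole in replicates 2, 4 and 5, and the same libraries gave 0.5 counts to Mir6973b, a microRNA gene inside Gfra4 on the same strand.

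The signalling receptor genes were both well counted. Ret (chromosome 6, 118151748 to 118197744, minus strand) stood at 182, 119, 231, 157, 105 and 161 CPM in replicates 1 to 6, a mean of 159 ± 45.2 CPM (SD, n = 6). It was highest in replicate 3 and lowest in replicate 5. Ncam1 (chromosome 9, 49502129 to 49799393, minus strand) had 339 CPM at the lowest, in replicate 5, a median of 528 CPM and 704 CPM at the highest, in replicate 6, with a mean of 509 ± 138 CPM (SD, n = 6). None of the 6 Ncam1 counts was a whole number.

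Levels of different genes were compared per length, as CPM per kilobase of combined exon length (CPM per kb). In descending order the means were 53.0 ± 17.5 CPM per kb for Gfra3, 49.7 ± 13.5 for Ncam1, 48.3 ± 13.7 for Gfra1, 28.3 ± 6.92 for Gfra2, 22.7 ± 3.09 for Gdnf, 21.7 ± 6.16 for Ret, 9.23 ± 3.02 for Artn and 0.689 ± 0.0939 for Gfra4 (SD, n = 6), with Nrtn and Pspn last. Among the 14998 genes kept by the filter on low counts, Gfra3 lay above 92.0% of genes, Ret above 78.9%, Artn above 56.9% and Gfra4 above 8.88%. Several of these means, and their order, depend on the length used. With the longest GENCODE protein-coding transcript, Ncam1 averaged 77.5, Gdnf 30.1, Ret 29.2, Artn 16.2 and Gfra4 0.907 CPM per kb. Gfra1, Gfra3 and Gfra2 then stood at 58.3, 53.0 and 28.4, so Ncam1 led and Gdnf and Ret lay above Gfra2.

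**Figure D1:**
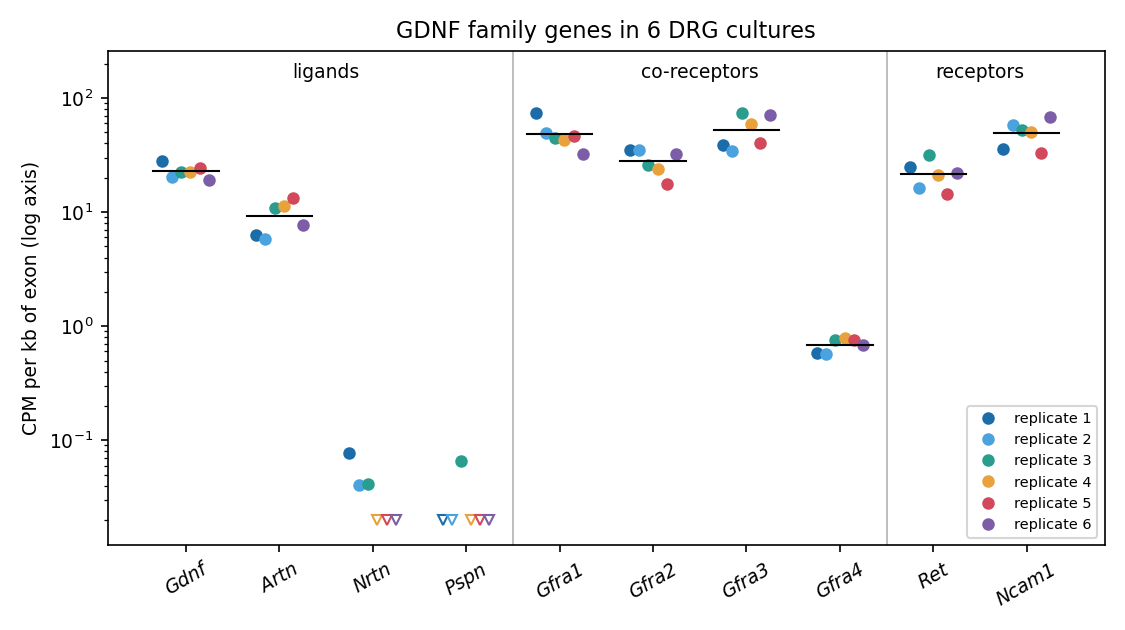
Level of each member in each culture, in CPM per kb of combined exon length on a log axis, with one point per replicate and a black line at the mean. Open triangles at the foot stand for 0 counts. Gfra4 averaged 0.689 CPM per kb and the other members above the floor 9.23 to 53.0 CPM per kb, and Nrtn and Pspn have at most 2 counts in any library.

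Several neighbours in that order did not differ beyond their spread. On the log2(CPM per kb + 0.1) scale, the difference within a library was 0.07 ± 0.43 between Gfra3 and Ncam1, 0.04 ± 0.73 between Ncam1 and Gfra1, 0.28 ± 0.46 between Gfra2 and Gdnf and 0.11 ± 0.43 between Gdnf and Ret (SD, n = 6). Gfra1 exceeded Gfra2 by 0.77 ± 0.48 and in 5 of 6 libraries. Ret exceeded Artn by 1.24 ± 0.64 and Artn exceeded Gfra4 by 3.51 ± 0.32, each in 6 of 6 libraries.

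Pairs of members were then compared by role. Of 20 pairs compared within libraries, 16 were ordered alike in all 6 cultures. In 6 of the 16, one member was Nrtn or Pspn, whose few counts all but fixed the order; of the 14 pairs of other members, 10 were ordered alike. For each of these 16 the two-sided exact sign-flip permutation test gave p = 0.03125, the smallest that 6 libraries allow (adjusted p = 0.0391, Benjamini-Hochberg over the 20 pairs). The pair of Nrtn and Pspn was left out because both were at 3 counts or fewer in every library.

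Among the ligands, Gdnf exceeded Artn in 6 of 6 libraries, by 1.35 ± 0.50 on the log2 scale. Gdnf held 71.4% ± 6.70 of the summed CPM per kb of the 4 ligands (SD, n = 6). Its share was 81.3% in replicate 1 and 64.8% in replicate 5, where Artn reached 35.2%.

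Among the co-receptors, Gfra1 and Gfra3 had no common order over the cultures per length: Gfra1 was higher in 3 libraries and Gfra3 in the other 3, with a log2 difference of -0.11 ± 0.80 for Gfra1 minus Gfra3 (exact sign-flip permutation p = 0.781, adjusted 0.781). This depends on the length scaling: without it the difference was 1.38, with Gfra1 higher in 6 of 6 libraries. Gfra2 was lower than Gfra1 in 5 of 6 libraries and lower than Gfra3 in 5 of 6, which did not pass (for each, p = 0.0625 by the exact sign-flip permutation, or 0.0694 after adjustment). The first of these rests on replicate 6, where Gfra1 minus Gfra2 was -0.0045, since Gfra1 was the higher in all 5 of the others. After thinning to the smallest total (0.77) and without length scaling (1.45), Gfra1 was the higher in 6 of 6 libraries. The longest GENCODE transcript as length gave the same order (1.03). The comparison of Gfra2 with Gfra3 rests on replicate 2, without which Gfra3 was the higher in all 5. The size of this difference also depends on the length scaling, without which Gfra2 minus Gfra3 was -0.076 and Gfra2 was lower in 4 of 6 libraries. All 3 exceeded Gfra4 in 6 of 6 libraries, by 5.14 ± 0.53 for Gfra2, 5.90 ± 0.50 for Gfra1 and 6.02 ± 0.39 for Gfra3 (log2, SD, n = 6).

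The make-up of the co-receptor family, taken per length, differed from culture to culture. Gfra1 held 49.8% of the summed CPM per kb in replicate 1 and 23.7% in replicate 6. Gfra3 held 26.2% in replicate 1 and 52.1% in replicate 6. Without length scaling the mean share of Gfra1 was 56.3% in place of 37.3% and that of Gfra3 22.8% in place of 40.5%. Gfra2 held 16.7% to 29.1% and Gfra4 0.393% to 0.711%. The summed level moved less, between 105.55 CPM per kb in replicate 5 and 147 CPM per kb in replicate 1.

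**Figure D2:**
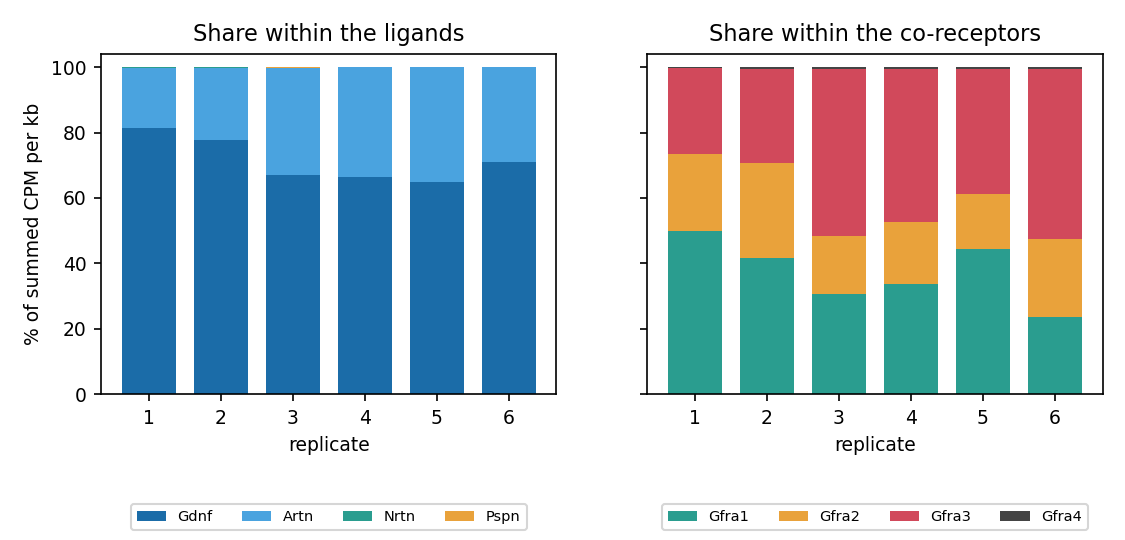
Share of each gene in the summed CPM per kb of the 4 ligands (left) and the 4 co-receptors (right), in percent, for replicates 1 to 6. Gdnf holds 64.8% to 81.3% of the ligand sum, and Gfra1 and Gfra3 exchange the leading place among the co-receptors, which they do not without length scaling, where Gfra1 is above Gfra3 in 6 of 6 libraries.

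Ret was lower than Gfra1 and Gfra3 in every library. The log2 difference was -1.16 ± 0.55 for Ret minus Gfra1 and -1.27 ± 0.37 for Ret minus Gfra3 (SD, n = 6). Ret minus Gfra2 was -0.39 ± 0.46, with Ret lower in 5 of 6 libraries, which did not pass (exact sign-flip permutation p = 0.0938, adjusted 0.0987), and without replicate 3 Ret was the lower in all 5. Ret was also lower than Ncam1 in 6 of 6 libraries, by -1.20 ± 0.50. The order of Ret with Gfra2 and Gfra3 depends on the length scaling. Without it Ret minus Gfra2 was 0.68, with Ret higher in 5 of 6 libraries, and Ret minus Gfra3 was 0.61, with Ret higher in 6 of 6. With the longest GENCODE transcript as length, Ret minus Gfra2 was 0.030, with Ret higher in 3 libraries.

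Each counted ligand was lower than the gene of its own co-receptor. Gdnf minus Gfra1 was -1.05 ± 0.24 and Artn minus Gfra3 -2.51 ± 0.52 (log2, SD, n = 6). Gfra2, at 98.6 CPM, was counted in cultures in which its ligand gene Nrtn was not detectable.

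The spread between cultures exceeded counting noise for 7 of the 8 members kept by the filter, when the 6 counts of a gene were set by chi-square against what TMM-scaled library sizes predict, with Benjamini-Hochberg adjustment over all genes. The background share was 76.3% of 14998 genes, so calls of this kind were common. The statistics were 222 for Gdnf, 376 for Artn, 696 for Gfra2, 1187.5 for Gfra3, 1297 for Ret, 2491 for Gfra1 and 4180 for Ncam1. Gfra4 was not called, with a statistic of 2.17 and an adjusted p of 0.843. With 23.5 to 31 counts per library, its spread between cultures was not distinguishable from counting noise at this depth.

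Set beside genes of like abundance (a mean CPM within a factor of 2), most members were among the more variable. The SD of log2(TMM-scaled CPM + 0.5) was 0.466 for Gfra3, above that of 96.4% of 3604 such genes. It was 0.455 for Artn (94.2% of 5015 genes lower), 0.407 for Gfra2 (94.7% of 3745), 0.401 for Ret (94.2% of 2621), 0.416 for Ncam1 (93.3% of 581) and 0.392 for Gfra1 (92.0% of 1445). Gdnf, at 0.189, lay above 75.5% of 3500 genes, and Gfra4, at 0.127, above 9.20% of 1739. The median over the 8 members was 0.404, and over all genes kept 0.165. In edgeR's quasi-likelihood fit, which tests for spread beyond the trend of genes of like abundance, 0 of the 8 members and 0.0% of all genes passed at an adjusted p under 0.05; 3 members (Gfra3, Gfra2 and Artn) and 5.39% of all genes had an unadjusted p under 0.05.

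The members peaked in different cultures. Replicate 5 had the lowest Ret, Gfra2 and Ncam1 but the highest Artn. Replicate 1 had the highest Gfra1 and Gdnf, with Gfra3 and Artn below their means. Replicate 3 had the highest Ret and Gfra3.

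**Figure D3:**
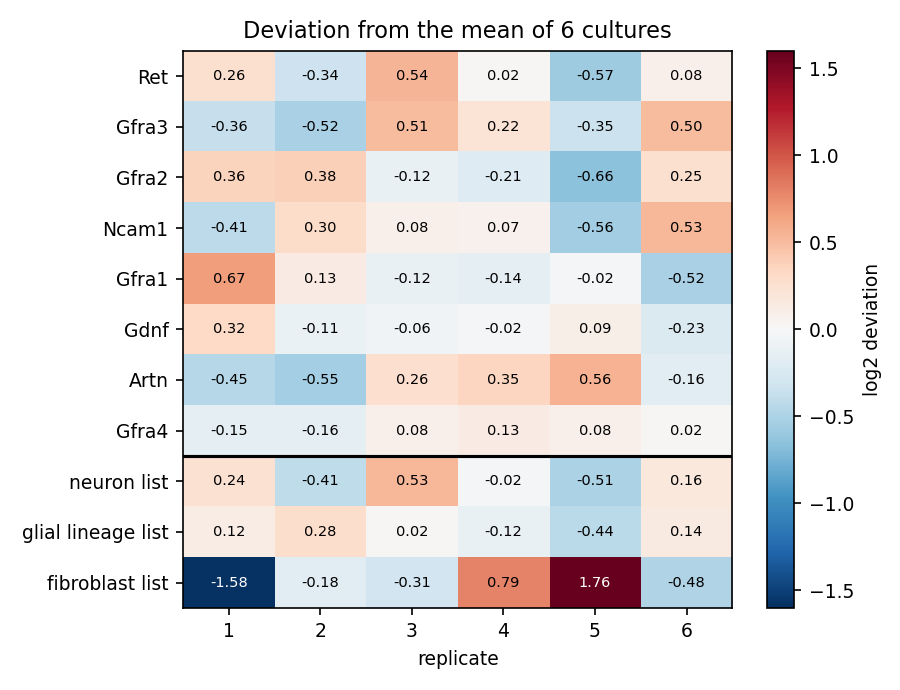
Deviation of each member from its mean over the 6 cultures on the log2(TMM-scaled CPM + 0.5) scale, with the scores of the neuron, glial lineage and fibroblast lists below the line. Each cell is one culture, red is above and blue below the mean. Ret runs from -0.57 in replicate 5 to 0.54 in replicate 3, and the neuron list from -0.51 to 0.53 in the same libraries.

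Ret rose and fell over the cultures with the neuron genes. The neuron list (12 genes) had summed levels of 1855, 1241, 2275, 1563, 1051 and 1710 CPM in replicates 1 to 6. The order of the cultures by Ret was the same as their order by the list score, the mean log2(TMM-scaled CPM + 0.5) of its genes. Pearson's r was 0.99 (exact permutation p = 0.00139, adjusted 0.0333 over the 24 relations of 8 members with 3 lists, n = 6), and Spearman's rho was 1.0 (exact permutation p = 0.00278, the smallest that 6 libraries allow, adjusted 0.0667). With the libraries farthest from the median list score (replicates 2 and 5, both at its low end) left out, r was 0.97. Of the single genes, Tubb3, a neuronal tubulin, had r = 0.99 with Ret, Stmn2 0.97 and Syt1, a synaptic vesicle protein, 0.98, while Rbfox3, a nuclear protein of neurons, had 0.47. In RNA from whole cultures, fewer neurons and less RNA per neuron cannot be told apart.

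Gfra2 moved with the glial lineage genes and not detectably with the neuron genes. The glial lineage list (7 genes) had summed levels of 6693, 6781, 6195, 5663, 4563 and 6289 CPM in replicates 1 to 6. Gfra2 had r = 0.96 with its score (exact permutation p = 0.00278, adjusted 0.0333, n = 6) and rho = 0.94 (exact permutation p = 0.0167, adjusted 0.133), and r was 0.90 without replicates 2 and 5. It did not pass with library totals in place of TMM scaling (r = 0.95, exact permutation, adjusted p = 0.05) or with the list median as score (r = 0.91, adjusted p = 0.075). The 7 genes had r from 0.72 for S100b to 0.99 for Cdh19, a cadherin of glial precursors. With the neuron score, Gfra2 had r = 0.31 and rho = 0.26 (exact permutation p = 0.560 and 0.658, adjusted 0.954 and 0.959), and whether these relations differ from those with the glial score was not tested. With the fibroblast score Gfra2 had r = -0.88 and rho = -0.66 (exact permutation p = 0.0208 and 0.175, adjusted 0.125 and 0.525), and r = -0.62 without replicates 1 and 5. Gfra2 is known from the nonpeptidergic nociceptors, and 3 of their 5 markers were at or above 1 CPM in all libraries. P2rx3 averaged 133 ± 52.0 CPM, Scn11a 33.4 ± 13.5 and Plxnc1 29.8 ± 10.3 (SD, n = 6). Lpar3 averaged 0.612 ± 0.240 CPM and Mrgprd 0.521 ± 0.410 CPM (SD, n = 6).

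Artn moved against the glial lineage genes. Its r with the glial lineage score was -0.89 (exact permutation p = 0.00556, adjusted 0.0444, n = 6) and rho was -0.94 (exact permutation p = 0.0167, adjusted 0.133), with r = -0.84 without replicates 2 and 5. It did not pass with library totals (r = -0.84, exact permutation, adjusted p = 0.0667) or with the list median (r = -0.94, adjusted p = 0.05). With the fibroblast score Artn had r = 0.79 and rho = 0.66 (exact permutation p = 0.0542 and 0.175, adjusted 0.260 and 0.525), and r = 0.52 without replicates 1 and 5. The macrophage list (6 genes, of which 4 were at or above 1 CPM in all libraries and 0 at the floor) had summed levels of 11.3, 21.2, 87.8, 94.5, 130 and 30.7 CPM in replicates 1 to 6, so it too was higher in replicates 3, 4 and 5, the cultures with the most Artn. The endothelial list (2 of 6 genes at or above 1 CPM in all libraries) was lowest in replicate 1, at 8.14 CPM, and highest in replicate 5, at 116 CPM, and the mural list (5 of 6) stood at 269 and 1494.9 CPM in the same libraries. The part of these cells in the levels of Artn and Gfra2 was not tested.

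**Figure D4:**
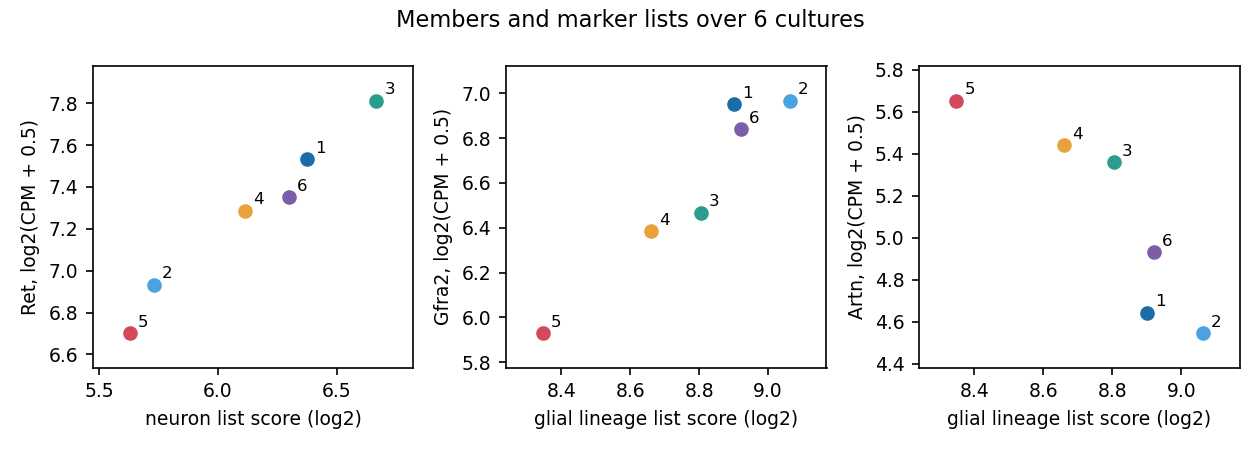
Ret against the neuron list score (left), Gfra2 against the glial lineage score (middle) and Artn against the glial lineage score (right), one numbered point per culture, all axes on the log2(TMM-scaled CPM + 0.5) scale. Pearson's r is 0.99, 0.96 and -0.89 over the 6 cultures.

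The other members had no relation that passed with any of these lists. For Gfra3, r with the neuron score was 0.70 (rho = 0.54, exact permutation p = 0.158 and 0.297, adjusted 0.380 and 0.713) and fell to 0.22 without replicates 2 and 5, so it rests on those libraries. Ncam1 had r = 0.66 with the glial lineage score (rho = 0.77, exact permutation p = 0.157 and 0.103, adjusted 0.380 and 0.411), which was 0.05 without replicates 2 and 5. No relation was tested with the repair Schwann cell list (Ngfr, Shh, Olig1, Btc, Runx2 and Jun). Of these, 5 of 6 were at or above 1 CPM in all libraries. Their summed levels were 2778, 2229, 1826, 1698, 2053 and 1439 CPM in replicates 1 to 6. Ngfr alone averaged 1036 CPM of a mean sum of 2004 CPM. Like Gfra1 and Gdnf, the sum was highest in replicate 1 and lowest in replicate 6. Replicate 2 ranked next to replicate 1 in the sum and in Gfra1. Its Gdnf, at 99.0 CPM, was lower than in any culture but replicate 6. Ngfr, Btc, Runx2 and Jun were highest in replicate 1, Shh in replicate 4 and Olig1 in replicate 5. Gdnf had r = 0.03 with the neuron score, -0.26 with the glial lineage score and -0.20 with the fibroblast score, with rho = -0.03, -0.60 and 0.09 (exact permutation, adjusted p from 0.645 to 1.0). Gfra1 had r = -0.03, 0.13 and -0.42 in the same order, with rho = -0.09, 0.14 and -0.14 (exact permutation, adjusted p from 0.881 to 0.967). By r, 3 of the 24 relations passed the adjustment and 4 had an unadjusted p under 0.05. By rho, 0 passed and 3 had an unadjusted p under 0.05. A single relation at the smallest p that 6 libraries allow for rho (exact permutation, 0.00278) adjusts to 0.0667 and could not pass. The 0 by rho thus says little.

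Relations between the members themselves were computed for 28 pairs, a choice made after seeing the data. Artn and Gfra2 moved in opposite directions, with r = -0.95 (exact permutation p = 0.00139, adjusted 0.0389, n = 6) and rho = -1.0 (exact permutation p = 0.00278, adjusted 0.0778), and r = -0.99 without replicates 2 and 5. With library totals it did not pass (r = -0.94, exact permutation, adjusted p = 0.13). Artn and Gfra4 had r = 0.93 and rho = 0.83 (exact permutation p = 0.00833 and 0.0583, adjusted 0.117 and 0.408), and r = 0.96 without replicates 2 and 5. The spread of Gfra4 over the cultures was not distinguishable from counting noise (chi-square, adjusted p = 0.843). Gdnf and Ncam1 had r = -0.87 and rho = -0.94 (exact permutation p = 0.0181 and 0.0167, adjusted 0.169 and 0.233), and r = -0.98 without replicates 1 and 6. Neither pair passed the adjustment. Gdnf and Gfra1 had r = 0.88 and rho = 0.60 (exact permutation p = 0.0333 and 0.242, adjusted 0.233 and 0.711), which turned to -0.32 without replicates 1 and 6 and so rests on them. Ret had r = 0.64 with Gfra3, 0.36 with Gfra2 and 0.04 with Gfra1, with rho = 0.54, 0.26 and -0.09 (exact permutation, adjusted p from 0.603 to 0.972).

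The genes whose pattern over the 6 libraries was most like that of a member were looked up among the 11932 genes with a mean of at least 5 CPM, the member itself left out. A high r over 6 libraries was not rare: 19 genes had r of at least 0.95 with Gfra3, 35 with Gdnf, 143 with Ret and 223 with Gfra2. For Ret they were Prkar1b, a regulatory subunit of protein kinase A, at r = 0.996, Syngr1, a synaptic vesicle protein, at 0.996, and Reep5 at 0.995. For Gfra2 they were Itga6, a laminin-binding integrin subunit, at 0.998, Ankrd28 at 0.996 and Nudt3 at 0.995. Artn was most like Lilr4b, a leukocyte receptor, at 0.992, Slc7a8, an amino acid transporter, at 0.991, and Adam8, a metallopeptidase, at 0.991.

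For the other members, Gfra1 was most like Tbc1d5 (r = 0.995), Sestd1 (0.993) and Adamts17 (0.991), and Gdnf was most like Stx3 (0.988), Tex2 (0.986) and Stag1 (0.985). Gfra3 was nearest to Tmem59l (0.992), Arhgap26 (0.987) and Cinp (0.986), and Ncam1 to Gria4, an AMPA receptor subunit (0.996), H2-K1 (0.996) and Gm12892 (0.994). Gfra4 was nearest to Trpa1 (0.991), an irritant-gated ion channel, Kri1 (0.983) and Cdpf1 (0.981), although its own spread did not exceed counting noise.

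Most of the 43 genes listed as RET adaptors, effectors and alternative partners were present, with 38 at or above 1 CPM in all libraries. The same number passed the filter on low counts, as did 14998 of the 45703 genes in all. The share of all genes at or above 1 CPM in all libraries was not computed, so this count does not set the list apart. The highest per length were Dok4, an adaptor that binds RET, at 61.9 ± 18.5 CPM per kb, Sdc3, a heparan sulfate proteoglycan that binds GDNF, at 57.6 ± 10.5, Grb10, an adaptor of receptor kinases, at 53.7 ± 8.27 and Ptprf, a receptor tyrosine phosphatase, at 52.0 ± 10.2 (SD, n = 6). Below 1 CPM in all libraries were Gfral, the co-receptor of Gdf15, with 0 counts, Gdf15 itself at 0.405 ± 0.266 CPM, the adaptor Grb7 with at most 5 counts and the ubiquitin ligase Cblc with at most 3.

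Of the 38 pathway genes kept by the filter, 36 (94.7%) varied beyond counting noise by the same chi-square test, against the 76.3% of all genes. Frs3 and Dok5, which averaged 3.49 and 3.93 CPM, did not (chi-square, adjusted p = 0.489 and 0.0501). The test calls small differences in well-counted genes: Crk was called with a highest level 1.09 times its lowest. The share called among genes of like abundance was not computed, so these calls do not set the list apart. The median SD of log2 level of the 38 genes was 0.219. Grb2, an adaptor that links receptors to RAS, averaged 115 ± 6.47 CPM (SD, n = 6), and Ptpn11, a phosphatase needed for signalling to RAS, between 263 and 301 CPM. Etv4, a transcription factor induced by RET and by FGF receptors, had the widest range of the 38 genes kept: 1.26 CPM in replicate 1 against 16.1 CPM in replicate 5. Its relative Etv5 lay between 44.1 and 72.8 CPM.

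**Figure D5:**
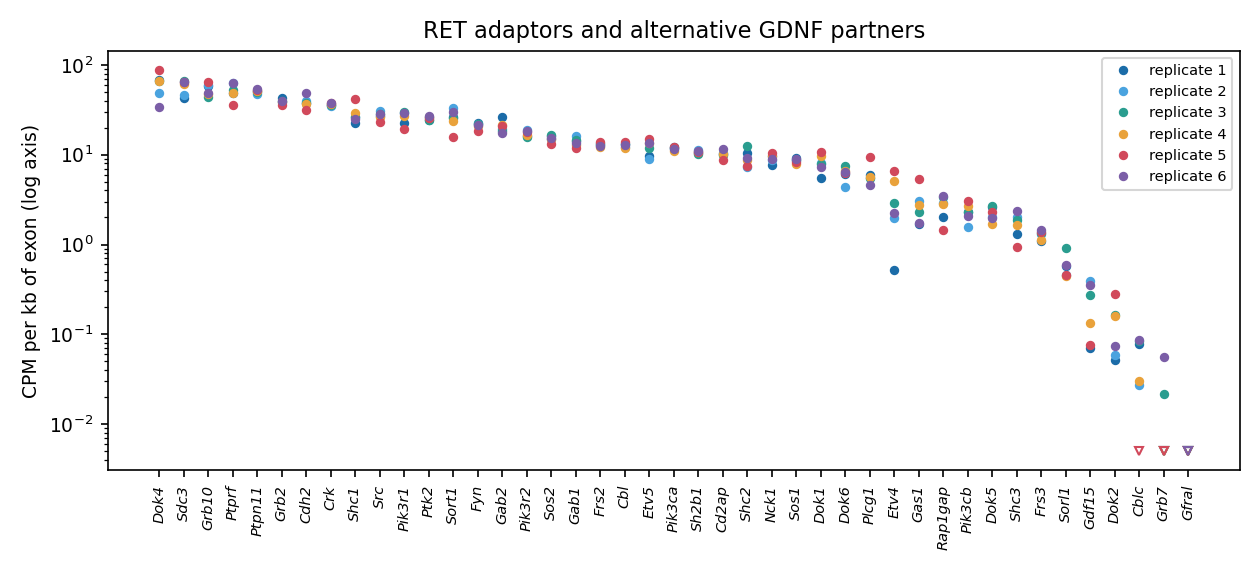
Level of the 43 pathway genes in each culture, in CPM per kb of combined exon length on a log axis, ordered by their mean, one point per replicate and open triangles for 0 counts. The 4 genes at the left lie between 52.0 and 61.9 CPM per kb on average, and Gfral at the right has 0 counts in every library.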

How the data were processed

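Poly-A RNA from 6 cultures was sequenced with a stranded kit, per the labels' protocols. The authors deposited estimated counts per gene, with no scaling; 13.4% to 14.7% of the values in a library were not whole. Cutadapt 2.5, STAR 2.7.2b, featureCounts 1.6.4 and build GRCm38.p6 are named in the submitters' processing notes; the strand setting and the handling of reads with several matches were not given in the sources used here. The table held 0 further columns of per-sample values.

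Rounded counts entered edgeR (4.0.16) and, as an alternative, DESeq2 (1.42.0), under R 4.3.3, and 14998 genes passed filterByExpr. CPM used library totals, while relations, list scores, likeness by r and the SD of log2 level used TMM-scaled CPM. Chi-square p-values were adjusted over all genes kept, and the test was tested on simulated data. Exact permutation tests were two-sided, over 64 sign patterns or 720 pairings. Named genes were the members, the 3 genes most like each by r, and, of the pathway list, the 4 highest per length and those under 1 CPM throughout, with marker genes where a result turned on them. Grb2, Ptpn11, Etv4, Etv5, Frs3 and Dok5 fell outside this rule and were chosen after their values were seen. The members and lists were chosen with earlier results of these data known. Promoters came from RefSeq. Alternatives were TMM, DESeq2 size factors, thinning, other pseudocounts and lengths, no filter, and leaving out each replicate.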

Additional observations from a re-analysis of the deposited data

How the results depend on the processing

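The 8 members at or above 1 CPM in all libraries numbered 7 after thinning to the smallest total and 8 under the other scalings. They also numbered 8 without any single replicate, but leaving out a replicate could not lower a count that requires every library. The number varying beyond counting noise was 7 under every scaling, thinning and filter tried and without any single replicate. The quasi-likelihood fit of edgeR called 0 (3 at an unadjusted p under 0.05). DESeq2 estimated a gene-wise dispersion above 0 for 7, but the share of all genes with such an estimate was not computed, so this count does not set the members apart. Pathway genes varying beyond counting noise numbered 34 to 37 without single replicates, and pairs ordered alike 16 to 17. The count of pairs could not fall below 16 in this way, since a pair ordered alike in all libraries stays so when a replicate is left out. Without length scaling, Gfra1 minus Gfra3 turned to 1.38, Ret minus Gfra2 to 0.68 and Ret minus Gfra3 to 0.61 (log2), and the mean co-receptor share of Gfra1 rose from 37.3% to 56.3% while that of Gfra3 fell from 40.5% to 22.8%. With the longest GENCODE transcript as length, a choice made after seeing the data, Gfra1 minus Gfra3 was 0.16 and Ret minus Gfra2 0.030. Without single replicates, Gfra1 minus Gfra3 ranged from -0.32 to 0.093, and it was 0.014 without replicate 3 and 0.093 without replicate 6.

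Relations that passed fell from 3 to 1 with library totals and to 1 with list medians, in both cases leaving Ret with the neuron list. Without single replicates 0 to 0 passed, since 5 libraries allow few arrangements. The r of Ret with the neuron list stayed between 0.982 and 0.994 in those fits, that of Gfra2 with the glial lineage between 0.899 and 0.984 and that of Artn between -0.943 and -0.841. The relation of Artn with Gfra2 no longer passed with library totals (r = -0.94, 0 of 28 pairs) or without any single replicate (0 to 0 pairs, r from -0.983 to -0.944). Samples could not be paired between conditions because all belonged to 1 group. Depth limits what can be said of Nrtn, Pspn and Gfra4.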
